A study of Mus musculus with 17 samples.

Results

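Mammary tumors of MMTV-CUX1 transgenic mice that had been placed in the medium-Wnt cluster by the study were compared with those placed in its low-Wnt cluster. The medium-Wnt cluster holds 5 tumors (p75-90, p75-129, p75-216, p110-98 and p110-121) and the low-Wnt cluster holds 7 (p75-101, p75-150, p75-534, p110-143, p110-314, p110-360 and p110-416), which makes 12 of the 17 tumors profiled. The remaining 5 form the high-Wnt cluster and are given only as a reference level. All the mice carried a transgene for a short isoform of the transcription factor CUX1, either p75-CUX1 or p110-CUX1, driven by mouse mammary tumor virus sequences, so no tumor is free of a CUX1 transgene, and each tumor comes from 1 mouse. The medium-Wnt cluster holds 3 p75 and 2 p110 tumors, and the low-Wnt cluster 3 p75 and 4 p110 tumors. By histology, the medium-Wnt tumors are an adenomyoepithelioma (p75-90), an adenocarcinoma (p75-216), an adenoma (p110-98) and 2 solid carcinomas (p75-129 and p110-121), whereas the low-Wnt tumors are an adenosquamous carcinoma (p75-101) and 6 solid carcinomas. RNA was taken from laser-microdissected epithelial cells of frozen sections, amplified in 2 rounds, and hybridized on 2-color arrays against a universal mouse reference RNA. A value is the log2 ratio of tumor over reference, and every difference below is medium-Wnt minus low-Wnt on that scale. Because the authors drew the clusters from the Wnt ligand genes on these arrays, the levels of those genes are a description and were not tested.

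Wnt proteins are secreted, lipid-modified ligands that bind Frizzled receptors and the co-receptors Lrp5 and Lrp6. In the canonical branch this stabilizes β-catenin, which enters the nucleus and works with Tcf and Lef factors at target genes. In the mammary gland, Wnt signals maintain stem and basal cells, while the luminal alveolar cells that differentiate in pregnancy make milk proteins and are sealed to each other by tight junctions.

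The 12 tumors were run on 28 arrays, 10 for the medium-Wnt and 18 for the low-Wnt cluster, with the dyes swapped between the arrays of a tumor. Going by the mark that the scanner software gives each spot, required on all arrays of a tumor, the tumor RNA lit up 34.6% ± 16.5 (SD) of the probes above background in the 5 medium-Wnt tumors. In the 7 low-Wnt tumors it was 38.7% ± 7.26 (SD). The shift of -4.1 percentage points was smaller than either SD (exact two-sided permutation test, p = 0.578). With each of the 12 tumors left out in turn, the shift was -10.9 without p75-129, at 61.9% the highest (exact permutation p = 0.0424). It was -5.54 to -0.18 without any other tumor (exact permutation p from 0.491 to 0.979). Among p75 tumors the medium-Wnt shares, 27.3% to 61.9%, lay on both sides of the low-Wnt shares, 34.8% to 35.7%. Among p110 tumors both medium-Wnt shares, 18.9% in p110-98 and 28% in p110-121, were under the low-Wnt range of 30.1% to 51.8%. The brightness ratio of reference over tumor RNA, at the 95th percentile of spots, reached 12.8 in p110-98 and at most 4.09 in the other 11.

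A weak tumor signal sets a floor to the ratio. For 39 uncalled genes the reference RNA always gave signal above background while the tumor RNA never did so on all arrays of any of the 12 tumors. All 39 had a higher mean ratio in medium-Wnt tumors, by a median of 0.8, with a 5th to 95th percentile of 0.3 to 1.37. Below, a gene counts as measured in a tumor if the scanner marked its tumor channel above background each time that tumor was hybridized, and rises of genes that were not measured are read against this floor.

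**Figure D1:**
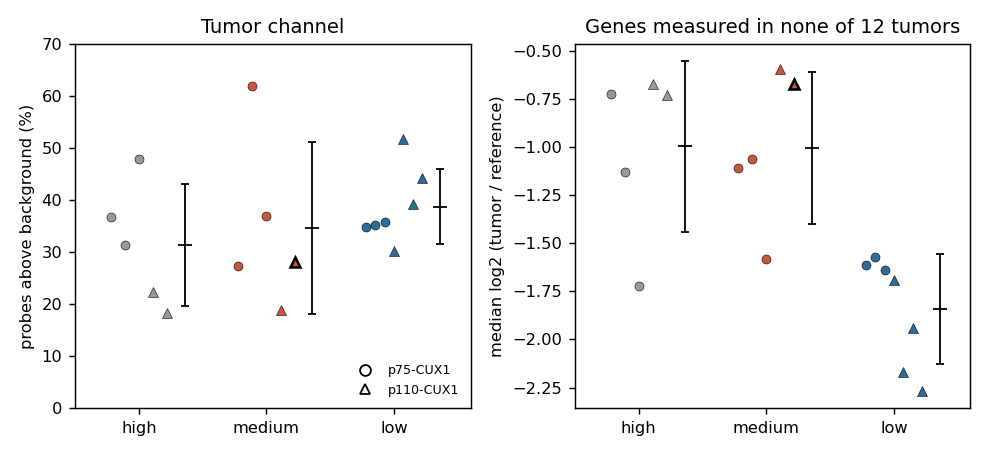
Left, percent of probes whose tumor channel was above background on all arrays; right, median log2 ratio of 39 genes measured in none of the 12 tumors. Each point is 1 tumor of the high-, medium- or low-Wnt cluster (circles p75, triangles p110, heavy outline p110-121), and bars give the mean and SD; p110-98 has the lowest share of the 12, 18.9%, and p110-98 and p110-121 have the highest medians of unmeasured genes, -0.59 and -0.67, against at most -1.06 in the other 10.

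The labels give every sample as epithelial tumor cells. In p110-121 several epithelial markers were far below the other 11 tumors or not measured, although Krt7, Krt17, Muc1 and Itgb4, among others, were measured in it. Elf5, the transcription factor of alveolar progenitors, had a log2 ratio of 0.078 in p110-121 and of 7.41 to 9.42 in the other 11 tumors. Keratin 8, a luminal keratin, was -4.32 in p110-121 and 0.79 to 2.81 elsewhere. In p110-121 the basal keratins Krt5 (-0.11) and Krt14 (-0.19) and the epithelial adhesion gene Epcam (-0.28) were not measured, whereas Krt8 and Krt18 (-4.91) were measured far below the reference. The leukocyte gene Ptprc was 0.79 in p110-121 against -4.06 to -1.06 in the other 11, and Cd74, the invariant chain of antigen-presenting cells, was 6.47 against at most 2.67. The mean of the 20 immune genes was 3 in p110-121 and -0.16 to 0.98 in the others. The called genes, and each list whose count changed without p110-121, are therefore also given without it. Krt5 was also low in 2 low-Wnt tumors, p110-314 (0.36) and p110-416 (0.45), in which Elf5 was 7.93 and 8.95. Signal from fewer cells of a type and from less RNA per cell cannot be told apart in these samples.

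**Figure D2:**
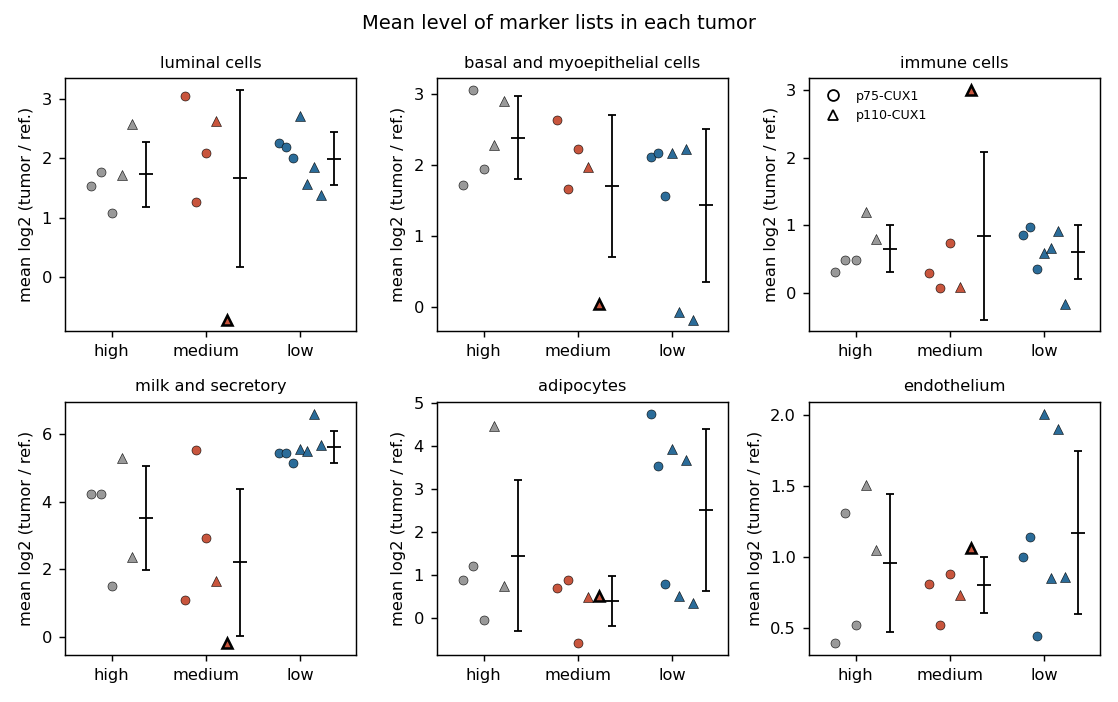
Mean log2 ratio of tumor over reference of 6 marker lists in each tumor, with the mean and SD of each cluster (circles p75, triangles p110, heavy outline p110-121). p110-121 has the lowest luminal mean, -0.72, and the highest immune mean, 3; milk genes are between 5.13 and 6.59 in all low-Wnt tumors, and 4 low-Wnt tumors have adipocyte means of 3.54 to 4.75.

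Of 28786 genes tested, 8 differed between medium-Wnt and low-Wnt tumors (limma, Benjamini-Hochberg adjusted p under 0.05), 4 higher (0.0139%) and 4 lower (0.0139%). The lower genes were Nat8, Tmem176b, Ceacam10 and AI448196, all measured in every low-Wnt tumor. The higher genes were Asic1, Lrrk2, Brunol5 and LOC666048, and of these Asic1 alone was measured in more than 1 of the 12 tumors. AI448196, Lrrk2, Brunol5 and LOC666048 fall outside the rule for naming genes and are named after their values were seen. At an unadjusted p under 0.05, 1901 genes were higher (6.6%) and 1241 were lower (4.31%), and the median difference of all genes was 0.017. All 5 medium-Wnt values were above all 7 low-Wnt values for 214 genes (0.743%) and below them for 72 genes (0.25%). Without p110-121, 9 genes were called, 4 higher (0.0139%) and 5 lower (0.0174%), and 5 of the 8 genes were among them. Without p75-216, 111 genes were called, 81 higher and 30 lower, and without p75-129, 29 were called, all 8 genes included in both cases. Fewer genes were called without p110-98 (2), p75-90 (3), p110-360 (3), p75-150 (4) or p110-143 (4), and more without p75-534 (15) or p110-416 (17).

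Nat8, which encodes an N-acetyltransferase of the endoplasmic reticulum, fell in medium-Wnt tumors. Its probe lies on chromosome 6 from 85905520 to 85905579 (mm7, the build of the array design, to which the other probe positions refer too). Its log2 ratios were 2.1 in p75-90, 2.38 in p75-129, 0.27 in p75-216, 2.12 in p110-98 and 0.4 in p110-121, and in low-Wnt tumors the lowest was 4.3, the median 4.89 and the highest 5.39. Every medium-Wnt tumor was below every low-Wnt tumor, and the mean of the 5 high-Wnt tumors, 3.11 ± 0.93 (SD), lay between the means of both. The difference was -3.37 ± 0.44 (SE), or 10.3-fold lower (limma adjusted p = 0.0131). An exact permutation test, two-sided, gave p = 0.00126, the smallest that 5 against 7 tumors allow. Nat8 was measured in all 12 tumors and passed with each of the 17 tumors left out in turn, p110-121 included (-3.1, limma adjusted p = 0.032). Asic1 passed 13 and Tmem176b 12 of these 17 fits. Brunol5, although measured in none of the 12 tumors, also passed all 17, and Lrrk2 passed 16. Of the 20 other alternatives, which kept the direction of Nat8 (-3.91 to -1.95), Nat8 passed 12, with limma adjusted p from 0.00826 to 0.453. It did not pass with signals processed by Feature Extraction (limma adjusted p = 0.212), with the arrays scaled to the same spread (0.382), with the tumor channel alone (0.181), with the tumor in Cy3 alone (0.0502), among solid carcinomas, p75 tumors or p110 tumors alone (0.178, 0.453 and 0.0641) or without both p110 medium-Wnt tumors (0.0893). Tmem176b, Ceacam10 and Asic1 each passed 9 of these 20 alternatives and AI448196 passed 8.

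Tmem176b and Tmem176a encode a pair of related membrane proteins known mainly from dendritic and lymphoid cells. RefSeq places them head to head on chromosome 6, with nearest start sites 109 bases apart (GRCm38.p6). Tmem176b (probe at 48794651 to 48795528) was -0.29 in p75-90, -0.59 in p75-129, -0.36 in p75-216, -0.042 in p110-98 and 0.2 in p110-121, against 0.63, 1.84 and 2.36 as the lowest, median and highest low-Wnt value. The clusters did not overlap, and the difference was -1.76 ± 0.26 (limma adjusted p = 0.0247), or -1.86 without p110-121 (limma adjusted p = 0.032). Tmem176a differed by -1.81 ± 0.33 but did not pass (limma adjusted p = 0.0709; -1.61 without p110-121, limma adjusted p = 0.174), and its second probe gave -1.69. Both genes were measured in all 12 tumors, and in p110-121 both were below every low-Wnt tumor. Which cells the signal of these genes came from was not tested.

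Ceacam10, a secreted member of the carcinoembryonic antigen family, and the transcript AI448196 fell in medium-Wnt tumors, where they were measured in 1 and 2 of the 5 tumors, so the sizes of their falls depend on background signals. Ceacam10 (chromosome 7, 21570796 to 21574134) was 0.15 in p75-90, 1.74 in p75-129, 0.62 in p75-216, 0.71 in p110-98 and -0.035 in p110-121, and was 2.42, 4.38 and 5.62 at the lowest, median and highest in low-Wnt tumors. It was measured in all 7 low-Wnt tumors and in 1 medium-Wnt tumor, with a difference of -3.45 ± 0.52 (limma adjusted p = 0.028). AI448196 (X chromosome, 129415745 to 129415804) differed by -3.29 ± 0.49 (limma adjusted p = 0.0247), with 1.86 in p75-216 as the highest medium-Wnt and 2.24 in p110-416 as the lowest low-Wnt value. A second AI448196 probe, measured in 2 tumors, gave -0.69. Neither passed without p110-121, where Ceacam10 was at -3.28 (limma adjusted p = 0.099) and AI448196 at -3.07 (limma adjusted p = 0.0805).

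Among the higher genes, Asic1, an acid-sensing sodium channel, was measured in 4 of 5 medium-Wnt tumors and in 1 of 7 low-Wnt tumors. It was 1.56 in both p75-90 and p75-216, 0.33 in p75-129, 0.66 in p110-98 and 0.34 in p110-121, against -0.95, -0.74 and -0.18 at the lowest, median and highest in low-Wnt tumors. The difference was 1.6 ± 0.23 (limma adjusted p = 0.0247; chromosome 15, 99686219 to 99686278), and 1.73 without p110-121 (limma adjusted p = 0.0249). A second, dimmer Asic1 probe, measured in 1 tumor, gave 0.15.

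The other rises rest on weak signals. Brunol5, the older name of the RNA-binding protein gene Celf5, rose by 0.83 ± 0.098 (limma adjusted p = 0.00976) and Lrrk2, a kinase gene mutated in inherited Parkinson disease, by 0.62 ± 0.08 (limma adjusted p = 0.0131). For both genes, no array of a low-Wnt tumor carried the mark for signal above background, and among all 12 tumors Brunol5 was measured in 0 and Lrrk2 in 1 (p75-129). The 2 other Brunol5 probes, measured in 1 and 0 tumors, gave 0.019 and -0.081, and no fold is given for either gene. LOC666048, a predicted gene measured in 1 tumor, rose by 1.34 ± 0.2 (limma adjusted p = 0.0247). Without p110-121 the differences were 0.8 for Brunol5, 0.6 for Lrrk2 and 1.3 for LOC666048 (limma adjusted p = 0.0249, 0.032 and 0.0805). All 3 differences lie between 0.3 and 1.37, the range of the 39 unmeasured genes above, and the part of the floor in them was not tested.

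**Figure D3:**
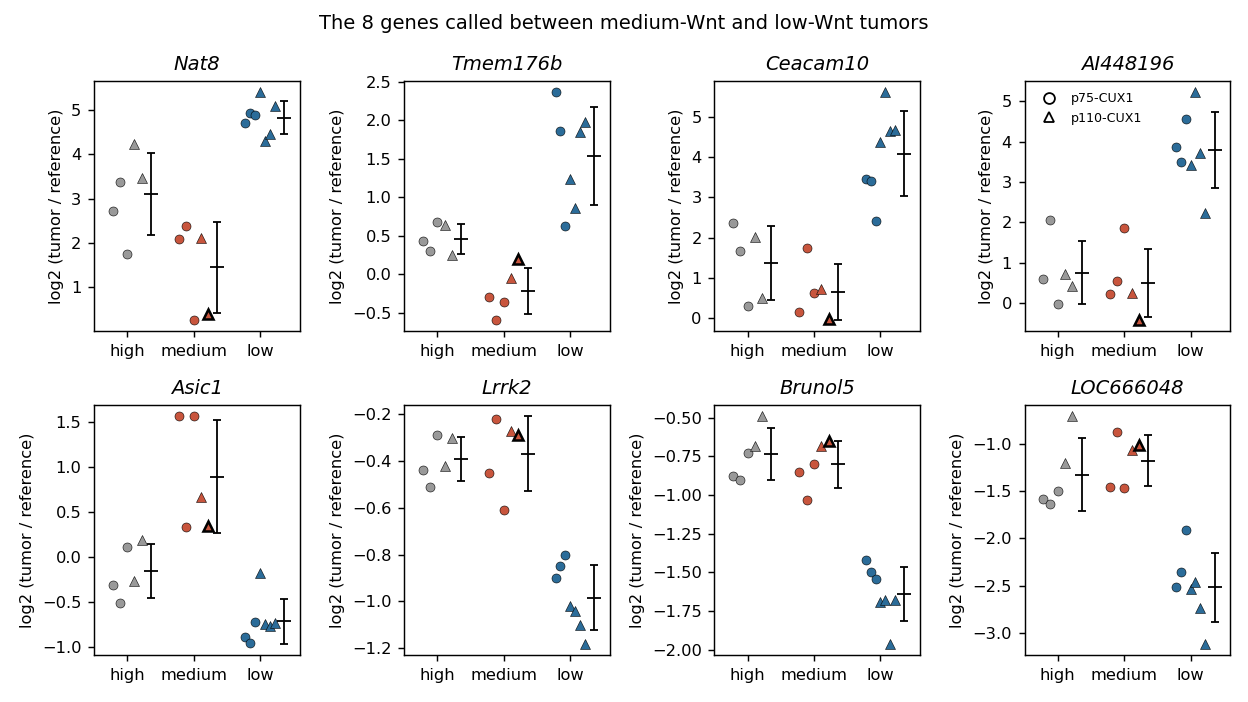
Log2 ratio of tumor over reference of the 8 called genes in each high-, medium- and low-Wnt tumor (circles p75, triangles p110, heavy outline p110-121), with the mean and SD of each cluster; each panel has its own scale. Medium- and low-Wnt tumors do not overlap in any panel, and for Nat8, measured in all 12 tumors, the high-Wnt mean lies between them.

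The 12 genes of smallest p in each direction that were measured in at least 3 medium-Wnt tumors (rises) or at least 4 low-Wnt tumors (falls) included 20 that did not pass. After Asic1, the first on the higher side were Tmem37, a calcium channel subunit-like gene (1.89 ± 0.32, limma adjusted p = 0.0696), Arhgap24, which inactivates Rac (2.21 ± 0.43, limma adjusted p = 0.0741), and Col7a1, the collagen of anchoring fibrils (2.69 ± 0.56, limma adjusted p = 0.0896). All 3 were measured in all 12 tumors. Tmem37 was 0.82 to 2.17 in medium-Wnt and -1.22 to 0.61 in low-Wnt tumors, without overlap, and the difference was 1.72 without p110-121 (limma adjusted p = 0.167). Tmem37 passed in 5 alternative fits and not in 32. Among genes measured in at least 5 of the 12 tumors its limma adjusted p was 0.0443. A second Tmem37 probe, measured in 6 tumors, gave 0.14. Col7a1 had a mean of 3.14 in medium-Wnt, 0.46 in low-Wnt and 2.65 in high-Wnt tumors. The further rises were Zfp385a, Def6, Nsun6, Ube2e2, Cnih2, Togaram2, Lonrf3 and Tef, from 0.53 to 2.11 (limma adjusted p from 0.106 to 0.162). A second Zfp385a probe, measured in all 12 tumors, gave 0.42 against 1.5. Ube2e2 and Nsun6 have other measured probes that pointed the other way, at -0.66 for Ube2e2 and at -0.22 and -0.085 for Nsun6.

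On the lower side, Dnajc2, a ribosome-associated chaperone gene, was at -1.84 ± 0.31 (limma adjusted p = 0.0609) and at -2.09 without p110-121, where it passed (limma adjusted p = 0.0249). In all, Dnajc2 passed in 5 alternative fits and not in 32. Its second probe, measured in 7 tumors, gave -0.025. Ehhadh, an enzyme of peroxisomal fatty acid oxidation, was at -2.3 and the membrane serine protease gene Tmprss13 at -2.06 (limma adjusted p = 0.0741 for each). Polg, Resf1, Mbtd1 and Mapkapk3, which encode the mitochondrial DNA polymerase, a silencer of retroelements, a chromatin reader and a kinase downstream of p38, were at -0.78 to -1.3 (limma adjusted p from 0.0709 to 0.0741). The 2 other Resf1 probes, measured in 12 and 6 tumors, gave -0.26 and -0.24 against -1.3.

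The Wnt ligands set the clusters and are described only. Of the 19 ligand genes, 6 were measured in at least 5 of the 12 tumors. Wnt6 was 0.38 in p75-90, 0.11 in p75-129, 0.11 in p75-216, 0.64 in p110-98 and 0.24 in p110-121, all above the low-Wnt range of -0.59 to -0.17 and, in the mean, below the high-Wnt tumors at 1.4 ± 0.73 (SD). Wnt10a, its neighbor on chromosome 1, was -3.28 to -1.42 in medium-Wnt and -5.59 to -2.64 in low-Wnt tumors, with p110-98 at -2.64 beside p75-534 at -2.64, and 0.61 ± 1.39 (SD) in high-Wnt tumors. Wnt16 was 0.35 to 1.16 in medium-Wnt and 0.02 to 0.42 in low-Wnt tumors.

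Wnt5b, a ligand of the non-canonical branch, ran the other way. It was 0.66 in p75-90, 2.03 in p75-129, 3.02 in p75-216, 0.92 in p110-98 and 0.58 in p110-121, and 2.89 to 4.88 in low-Wnt tumors, with only p75-216 inside the low-Wnt range. Its mean was 1.44 in medium-Wnt, 3.56 in low-Wnt and 1.46 in high-Wnt tumors. A second Wnt5b probe, measured in 4 tumors, differed by -0.43. Wnt3 and Wnt8a were high in p110-121 alone among medium-Wnt tumors, at 2.04 and 2.11, with the other 4 at most at 0.1 and 0.22. Differences in the other 13 ligands were between -0.59 (Wnt2) and 0.21 (Wnt10b), and Wnt2b, Wnt5a and Wnt10b were not measured in any of the 12 tumors.

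Milk and secretory genes were lower in medium-Wnt tumors as a list, although none passed the adjusted threshold. All 14 members had a negative difference, with a median of -2.19 against 0.017 for all genes, and 11 of the 14 had an unadjusted p under 0.05, against 4.31% of all genes in this direction. Without p110-121, 14 of 14 were negative (median -1.66) and 9 of 14 had an unadjusted p under 0.05, against 3.27% of all genes. The count depended on the p110 medium-Wnt tumors and on scaling. It was 5 of 14 without p110-98 and p110-121, 2 of 14 among p75 tumors alone, 3 of 14 among solid carcinomas alone and 4 of 14 with the arrays scaled to the same spread, with 12, 11, 13 and 14 members negative, and 11 of 14 among p110 tumors alone (median -5.22, against 5.12% of all genes lower). The medians in the first 4 of these fits were -1.64, -0.87, -3.19 and -3.36, and 2.42%, 3.77%, 2.71% and 3.78% of all genes were lower at the same threshold. The sequences before the start sites of 4 of these genes follow, because the values described after them belong to these genes. The capitals mark TTCNNNGAA, the palindromic motif that STAT5, the transcription factor of prolactin signaling, is known to bind, and the lower case is the rest of the 250 bases 5′ of the RefSeq start site, written 5′ to 3′ on the strand of the gene (GRCm38.p6).
Csn2: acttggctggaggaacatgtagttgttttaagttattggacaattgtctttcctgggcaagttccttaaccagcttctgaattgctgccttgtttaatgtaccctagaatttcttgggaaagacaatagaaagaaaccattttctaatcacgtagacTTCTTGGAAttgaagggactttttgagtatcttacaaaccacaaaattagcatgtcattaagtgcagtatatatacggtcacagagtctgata
Csn1s1: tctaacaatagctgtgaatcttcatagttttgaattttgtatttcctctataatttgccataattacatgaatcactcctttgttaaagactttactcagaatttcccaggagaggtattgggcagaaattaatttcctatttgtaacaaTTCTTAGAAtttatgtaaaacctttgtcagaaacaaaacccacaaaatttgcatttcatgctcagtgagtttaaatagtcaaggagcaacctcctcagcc
Glycam1: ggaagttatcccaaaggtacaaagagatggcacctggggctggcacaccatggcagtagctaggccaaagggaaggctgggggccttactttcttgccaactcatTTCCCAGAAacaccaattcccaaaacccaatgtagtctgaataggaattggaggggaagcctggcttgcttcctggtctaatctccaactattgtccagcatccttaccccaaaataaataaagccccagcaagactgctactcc
Csn1s2a: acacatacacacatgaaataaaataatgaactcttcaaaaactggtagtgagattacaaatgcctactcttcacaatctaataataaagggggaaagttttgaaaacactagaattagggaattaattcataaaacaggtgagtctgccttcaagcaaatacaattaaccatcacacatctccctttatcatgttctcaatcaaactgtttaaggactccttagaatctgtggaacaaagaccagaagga

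These windows are chr5:87699426-87699675 (minus strand) for Csn2, chr5:87665958-87666207 (plus strand) for Csn1s1, chr15:103565082-103565331 (minus strand) for Glycam1 and chr5:87774200-87774449 (plus strand) for Csn1s2a. The motif was found, on either strand since it is palindromic, in 3 of the 10 milk genes with a window in the table and in 7.02% of all 32851 windows. It starts 93 bases before the start site in Csn2, 100 in Csn1s1 and 145 in Glycam1, and these letters are not in the Csn1s2a window.

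Csn2, Csn1s2a, Glycam1, Csn1s1 and Wap were measured in all 7 low-Wnt tumors but in only 2, 2, 1, 4 and 3 of the 5 medium-Wnt tumors, so the sizes of their differences depend on background signals and are not ranked here. Csn2, β-casein, was -0.11 in p75-90, 9.95 in p75-129, 3.78 in p75-216, 0.1 in p110-98 and 0.031 in p110-121, and 9, 10.4 and 10.62 at the lowest, median and highest in low-Wnt tumors. It was high in every low-Wnt tumor and in 1 of 5 medium-Wnt tumors, the solid carcinoma p75-129, which lay inside the low-Wnt range. The difference was -7.29 ± 1.92 (SE; unadjusted p = 0.00174, limma adjusted p = 0.188), and -6.61 without p110-121 (limma adjusted p = 0.409).

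Csn1s2a, an αs2-like casein, had -0.066, 9.41, 2.85, 0.98 and 0.02 in the medium-Wnt tumors in the order above and 7.99 to 10.99 in low-Wnt tumors (-7.1 ± 1.77, limma adjusted p = 0.168). Glycam1, a milk mucin, was 8.98 in p75-129 and at most 0.14 in the other 4 medium-Wnt tumors, against 7.16 to 9.39 (-6.72 ± 1.69, limma adjusted p = 0.169). Csn1s1, αs1-casein, was kept in p110-98 too, at 9.26, and was 0.0069 in p110-121. Wap, whey acidic protein, was 8.43 in p75-129, 4.28 in p75-216 and 2.55 or less in the other 3, against 6.54 to 8.23 in low-Wnt tumors (-4.51 ± 1.37, limma adjusted p = 0.258).

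The other members are given by their fitted differences. Muc15, a mucin of the milk fat globule, was at -4.04 ± 1.25, Btn1a1, butyrophilin, at -1.7 ± 0.47, Lalba, α-lactalbumin, at -1.74 ± 0.68, Csn3, κ-casein, at -1.59 ± 0.63 and Xdh, xanthine dehydrogenase, at -1.23 ± 0.5. The secreted iron-related proteins Ltf (-2.38 ± 1.36) and Lcn2 (-2.01 ± 0.83) turned positive among p75 tumors, at 0.66 and 0.37. Mfge8, which coats milk fat globules, was at -1.5 ± 0.85 and at -0.55 without p110-121, and Spp1, osteopontin, at -0.38 ± 1.07. The list mean was 5.13 to 6.59 in low-Wnt tumors, whereas in medium-Wnt tumors it was 5.53 in p75-129, 2.94 in p75-216, 1.65 in p110-98, 1.09 in p75-90 and -0.18 in p110-121.

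**Figure D4:**
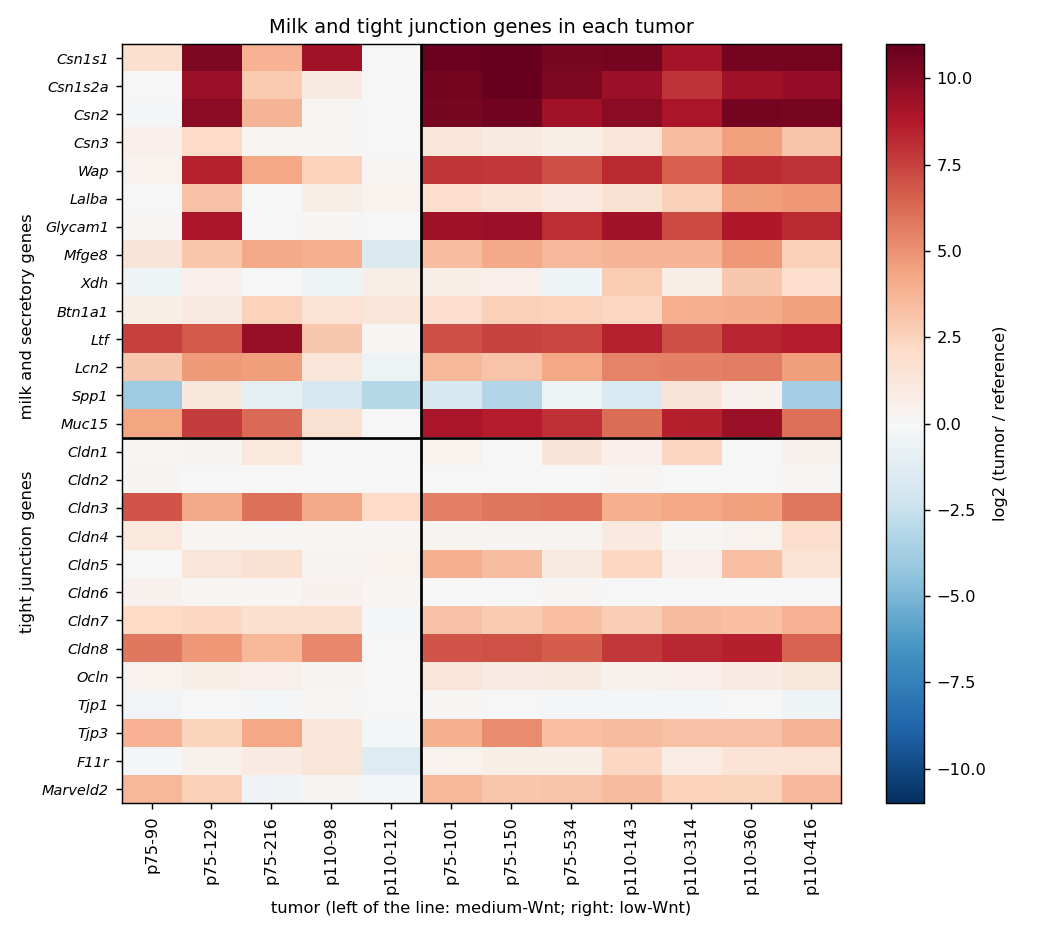
Log2 ratio of tumor over reference (color) of the 14 milk and secretory genes and 13 of the 14 tight junction genes in each medium-Wnt (left) and low-Wnt (right) tumor. Csn1s1, Csn1s2a, Csn2, Wap and Glycam1 are high in all 7 low-Wnt tumors and in p75-129, and these genes are at 0.11 or less in p110-121.

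Tight junction genes were counted in the same way. Of 14 members, 6 had an unadjusted p under 0.05 and were lower, against 4.31% of all genes, 1 was higher (Cldn6, measured in 1 tumor, 0.26), and the median was -0.73. None passed over all genes. Without p110-121 the count was again 6 lower of 14, with a median of -0.47, against 3.27% of all genes. It was 4 of 14 without both p110 medium-Wnt tumors, against 2.42%, and 4 of 14 among p75 tumors alone (median -0.36), against 3.77%. In Cldn7, a claudin of the lateral membrane, the clusters did not overlap, with 2.26 in p75-129 as the highest medium-Wnt and 2.69 in p110-143 as the lowest low-Wnt value (-1.68 ± 0.35, limma adjusted p = 0.0879).

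Cldn8 was 3.61 to 5.79 in 4 medium-Wnt tumors and -0.0089 in p110-121, against 6.45 to 8.59 in low-Wnt tumors (-3.5 ± 0.84, limma adjusted p = 0.155). Ocln, occludin, was at -0.56 ± 0.16 and was measured in 1 of 5 medium-Wnt and 6 of 7 low-Wnt tumors, and Marveld2, tricellulin, was at -1.93 ± 0.62. Cldn5, a claudin known mainly from endothelium, was at -1.56 ± 0.55. The members that did not reach an unadjusted p of 0.05 in either direction were Cldn1 (-0.42), Cldn2 (0.074), Cldn3 (-0.43), Cldn4 (-0.25), Tjp1 (-0.0042), Tjp3 (-1.37) and F11r (-0.9), and Cldn3 was at 0.22 without p110-121.

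General luminal, basal and stem cell markers were counted in the same way, and over all genes 6.6% were higher and 4.31% lower at an unadjusted p under 0.05. Of 18 luminal genes, 2 had an unadjusted p under 0.05 and were lower, Kit (-2.01 ± 0.59) and Epcam (-0.87 ± 0.36), and the median was -0.13. Without p110-121 the median was 0.19 and 1 of 18 was lower, with Epcam at -0.55 (unadjusted p = 0.103), and among solid carcinomas alone 7 of 18 were lower (median -1.85), against 2.71% of all genes in that fit. Kit marks luminal progenitors and was 3.48 in p75-216, inside the low-Wnt range of 1.93 to 5.13, and -0.035 to 1.59 in the other medium-Wnt tumors. Of 19 basal and myoepithelial genes, Myh11, a smooth muscle myosin, was higher (1.71 ± 0.74) and Itga6, Lamb3 and Oxtr were lower at an unadjusted p under 0.05 (Itga6 at -1.33 ± 0.5), with a list median of 0.14. Without p110-121 the list held 0 higher and 1 lower gene of 19 in limma at that threshold (median 0.46), with Myh11 at 1.59 (unadjusted p = 0.0698) and Itga6 at -1.05 (unadjusted p = 0.0566). Of 18 stem and progenitor genes, 5 were lower (Abcg2, Itga6, Sox10, Kit and Cd24a) and the median was -0.094, and without p110-121 2 of 18 were lower, where 5.21% of all genes were higher and 3.27% lower.

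Markers of cells outside the epithelium were counted in the same way, and none passed over all genes. Of 10 adipocyte genes, 9 had a negative difference, with a median of -2.12, and 2 had an unadjusted p under 0.05, against 4.31% of all genes, Lpl (-3.86 ± 1.07) and Cidec (-3.97 ± 1.57). The count was also 2 of 10 without p110-121 (against 3.27% of all genes lower). It was 5 without p110-314 (3.94%) or p110-416 (3.84%), and 4 without p75-534 (4.54%) or the high-Wnt tumor p110-225 (4.34%). It was 5 with median centring (2.56%) or with the share of probes above background as a covariate (4%). Among solid carcinomas alone it was 0 (2.71%, median -0.87). The list mean split the low-Wnt tumors into p75-101, p75-150, p110-143 and p110-360, at 3.54 to 4.75, and the other 3, at 0.36 to 0.79, and it was -0.58 to 0.9 in medium-Wnt tumors. Lep, a defining adipocyte gene, was not measured in any tumor. The milk gene mean was 5.13 to 5.66 in the 3 low-Wnt tumors with little adipocyte signal and 5.42 to 6.59 in the other low-Wnt tumors. A relation between the milk and adipocyte lists was not tested.

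Of 10 endothelial genes, 4 were lower at an unadjusted p under 0.05, Emcn (-2.47 ± 0.76), Kdr (-1.61 ± 0.49), Cdh5 and Flt1, against 4.31% of all genes, and 2 were lower without p110-121, against 3.27%. The list median was -0.074, the list mean was 0.52 to 1.06 in medium-Wnt and 0.44 to 2.01 in low-Wnt tumors, and Tie1 was not measured in any of the 12. Of 16 fibroblast and matrix genes, Sparc (1.3 ± 0.47) and Fn1 were higher and Fap (-1.13 ± 0.38) and Lum lower, against 6.6% and 4.31% of all genes, with list means of -2.02 to -0.42 in medium-Wnt and -3.36 to -0.19 in low-Wnt tumors. Among p75 tumors alone 12 of 16 genes were negative (median -0.75, 5 lower, against 3.77% of all genes). Among p110 tumors alone 14 of 16 were positive (median 0.9, 2 higher, against 11.2%), and the difference between transgenes was not tested for the list. The p110 list means were -1.07 and -0.42 in medium-Wnt tumors, -3.36 in p110-416, and -1.46 to -0.19 in the other p110 low-Wnt tumors. Without p110-416, 10 of 16 genes were negative over both transgenes (median -0.32). Without p110-121 the list held 1 higher and 3 lower genes (median -0.16). None of 20 immune genes reached an unadjusted p under 0.05 in limma (median 0.22), and without p110-121 2 of 20 were lower (median -0.0079), against 3.27% of all genes, while among p110 tumors alone 5 of 20 were higher (median 0.94), against 11.2%. In the comparison of all 12 tumors, the measured members of smallest p were Cd68 (1.15 ± 0.59, with 1.92 in p110-121 and at most -1.48 in the other medium-Wnt tumors) and Cd8a (-1.11 ± 0.67). The part of these cells in the differences above was not tested.

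Genes of the Wnt pathway other than the ligands had members past an unadjusted p of 0.05 at about the shares over all genes (6.6% higher and 4.31% lower). Of 15 receptors, Lrp5, a co-receptor, was higher (1.88 ± 0.65, unadjusted p = 0.0109, limma adjusted p = 0.321) and Fzd7 was lower (-0.64 ± 0.24, limma adjusted p = 0.368), and the list median was -0.14. Of 16 feedback targets of β-catenin, Lef1 was higher (0.96, unadjusted p = 0.00723), although among the 12 it was measured in the low-Wnt tumor p110-416 alone and the difference lies inside the range of unmeasured genes, and Myc lower (-0.85 ± 0.34, limma adjusted p = 0.393), and Axin2, a widely used readout that was measured in 1 tumor, was at -0.58 (unadjusted p = 0.454). Bambi, the other named member of this list, was at -1.21 ± 0.73. Of 12 secreted antagonists none reached an unadjusted p under 0.05, with Sost at 1.14 ± 0.55 and Sfrp2 at -1.31 ± 0.66. The list medians were -0.22 for feedback targets and -0.055 for antagonists.

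The study's question turned on CUX1, the Krüppel-like factor GLIS1 and markers of epithelial-mesenchymal transition. Glis1 was -1.93 in p75-90, -1.52 in p75-129, -2.56 in p75-216, -1.01 in p110-98 and -1 in p110-121, against -2.91, -2.53 and -2.01 at the lowest, median and highest in low-Wnt tumors. Apart from p75-216, the medium-Wnt tumors were above every low-Wnt tumor, but the difference of 0.92 ± 0.29 did not pass (unadjusted p = 0.00596, limma adjusted p = 0.272), and it was 0.77 without p110-121. Glis1 was measured in 1 medium-Wnt and 1 low-Wnt tumor, its difference is inside the range of unmeasured genes, and it was -0.079 when the tumor channel alone was used. Cux1 was at 0.053 ± 0.25, within the spread between tumors (limma adjusted p = 0.953), and whether its probe also detects the transgene was not checked.

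Vim, vimentin, was at 0.46 ± 0.66 and at -0.0063 without p110-121, in which it was highest at -1.85. Cdh1, E-cadherin, was measured in 1 medium-Wnt and 4 low-Wnt tumors, with 1.98 in p75-90 and at most 0.12 in the other medium-Wnt tumors, and 4.21 in p110-143 as the highest low-Wnt value (-0.95 ± 0.68). The differences were 1.32 ± 0.83 for Snai2, 0.42 ± 0.32 for Snai1, 0.46 ± 0.27 for Twist1 and -0.26 ± 0.56 for Ctnnb1, β-catenin, all with a limma adjusted p above that of Glis1. Snai1 was measured in p75-216 alone among medium-Wnt tumors, and Twist1 in p110-314 alone among the 12. The Snai1 and Twist1 differences lie inside the range of unmeasured genes. Cdh2, N-cadherin, was not measured in any of the 12 tumors. Its difference of 0.41 had an unadjusted limma p under 0.05, did not pass the adjusted threshold and lies inside the range of unmeasured genes. Other Cdh2 probes, also not measured, gave -0.064 and 0.027. In the tumor channel alone Snai1 was at -0.37 and Twist1 at -0.23.

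The remaining lists are read against 6.6% of all genes higher and 4.31% lower at an unadjusted p under 0.05, as the plot of lists shows. Several of their rises belong to genes measured in few tumors, and among genes measured in at least 5 of the 12 tumors 4.44% of all genes were higher and 7.39% lower. Of 15 BMP, TGF-β and Id genes 4 were higher, with Inhba, the activin subunit, at 1.75 ± 0.45 and Id3 at 0.85 ± 0.37, and 1 was lower, and without p110-121 2 of 15 were higher, against 5.21% of all genes. Of 9 of these genes measured in at least 5 tumors, 2 were higher and 1 was lower. Of 11 ErbB genes, the growth factor genes Ereg (0.49) and Tgfa (0.35) reached an unadjusted p under 0.05 but were measured in 3 and 1 of the 12 tumors, none of the 6 measured in at least 5 tumors did, and without p110-121 the count was 1 of 11. In this list Erbb3 was at -0.97 ± 0.48 and Erbb4 at 0.28 ± 0.22. Of 20 squamous genes 3 had a positive difference at that threshold, Sprr1a (2.12 ± 0.81), Krt10 (0.69) and Klk5 (0.13), of which Klk5 was measured in no tumor, and Tgm1 was lower (-1.61 ± 0.51). Of the 6 squamous genes measured in at least 5 tumors 1 was higher, and without p110-121 2 of 20 were. Of 18 hypoxia and glycolysis genes 3 were higher, Pfkp (0.6 ± 0.25) among them, or 1 of the 16 measured in at least 5 tumors, and Ndrg1 was lower (-2.43 ± 0.58).

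Most cell cycle genes had a negative difference over all 12 tumors, although none of these reached an unadjusted p under 0.05 in limma. Among p110 tumors alone most were not negative, and the difference between transgenes was not tested for these lists. Of 20 DNA replication genes 15 had a negative difference and 2 had an unadjusted p under 0.05, both with a positive difference (Cdc6 and Ccne2, the latter measured in none of the 12 tumors), with Mcm7 at -0.56 ± 0.39 and Gins1 at -0.57 ± 0.44. Of 21 mitosis genes 15 were negative, with a median of -0.6, 1 reached an unadjusted p under 0.05 (Ttk, 0.15, measured in 1 tumor), Ccnb2 was at -1.1 ± 0.68 and Tpx2 at -0.69 ± 0.41. The count of lower mitosis genes depended on the setting, from 0 of 21 to 8 with the arrays scaled to the same spread (against 3.78% of all genes), 5 with the tumor channel alone (5.39%), 5 without p110-143 (5.46%) and 4 among p75 tumors alone (3.77%). Among p110 tumors alone 8 of 20 replication genes and 10 of 21 mitosis genes were negative (medians 0.092 and 0.061), among p75 tumors alone 18 of 20 and 19 of 21 (medians -0.61 and -0.81), and without p110-314 10 of 20 replication genes were negative. Of 13 Notch genes 1 was higher, Dll3 (0.91 ± 0.37), or 0 higher and 1 lower without p110-121, and Notch4, measured in 4 low-Wnt tumors, was at -1.16 ± 0.65. Of 19 interferon response genes 1 reached that threshold, Ifit2 (0.3), which was measured in none of the 12 tumors, with Cxcl10 at 0.93 ± 0.58 and Oasl1 at 0.61 ± 0.47. Of 14 Hedgehog and Gli genes Glis1 was the only one past an unadjusted p of 0.05, with Smo at -0.72 ± 0.48 and Sufu at -0.42 ± 0.32. Of 7 Cut-family genes Satb1 was lower (-1.36 ± 0.37) and Onecut2 was at 0.22 ± 0.55.

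**Figure D5:**
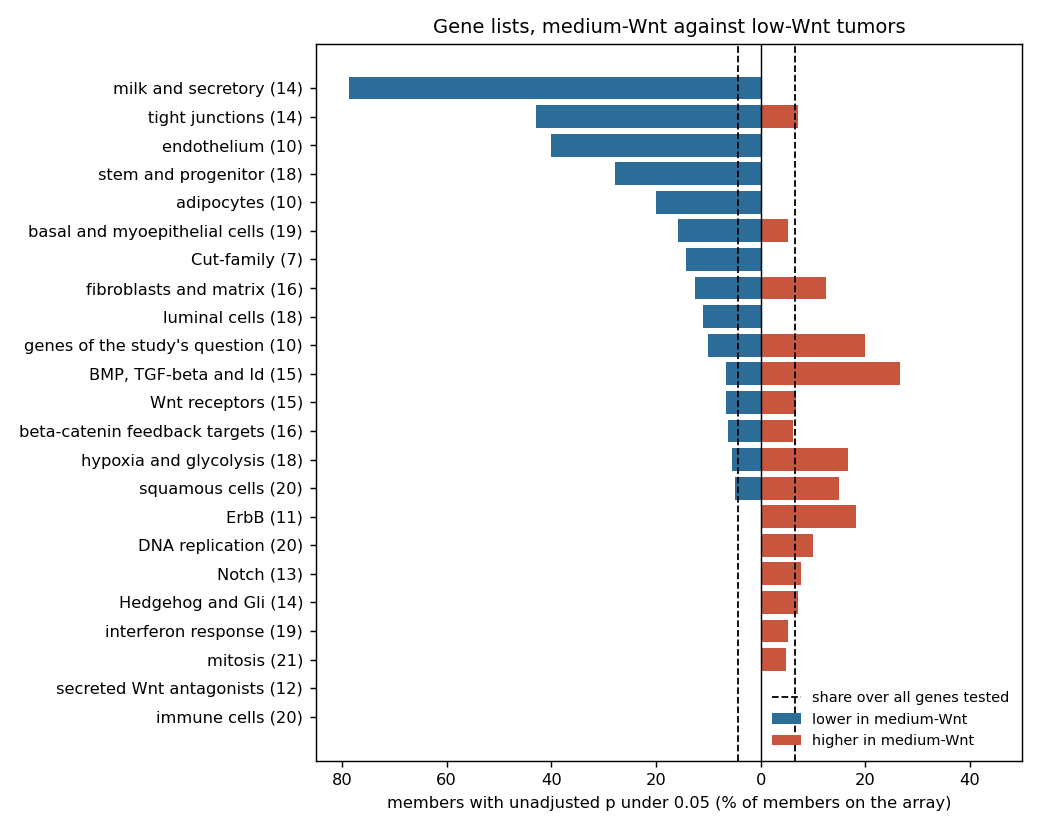
Percent of the members of each list (number on the array in parentheses) with an unadjusted limma p under 0.05, to the left when lower and to the right when higher in medium-Wnt tumors; dashed lines give the share over all 28786 genes. Milk and secretory genes reach 11 of 14 on the lower side and tight junction genes 6 of 14.

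The transgene and the year in which the arrays were scanned cannot be told apart, but both clusters hold tumors of each. Within p75 tumors (3 against 3) the differences were -3.26 for Nat8, -2.03 for Tmem176b, -2.26 for Ceacam10, -3.1 for AI448196 and 2 for Asic1. Within p110 tumors (2 against 4) they were -3.54 for Nat8, -1.4 for Tmem176b, -4.5 for Ceacam10, -3.72 for AI448196 and 1.1 for Asic1. In limma fits, 2 genes passed among p75 tumors alone, neither of them among the 8, and 175 among p110 tumors alone, where the clusters also differ in the share of probes above background. Whether a cluster difference was itself unequal between p75 and p110 tumors was tested with an interaction term, and 1 of 28786 genes passed, the transcript D630013G24Rik (p75 difference -0.81, p110 difference -2.59, limma adjusted p = 0.0358), named after its value was seen. The count changed with single tumors left out, with 659 genes without p110-98, 548 without p110-143, 100 without p110-121, and 16 without p110-314, and no gene passed without p75-47, p75-90, p75-101, p75-129, p75-150, p75-216, p75-534 or p110-360. The fits without p110-98 or p110-121 hold 1 p110 medium-Wnt tumor, which is assumed to vary like the other groups.

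With the transgene as a block the main comparison gave 14 genes. By the scan day of the first array of each tumor, a medium-Wnt and a low-Wnt tumor shared 3 days. p110-143 and p110-360 have 4 arrays each, and whether all of these share the day was not checked. For Nat8 the differences within these pairs were -4.63 (p75-216 minus p75-534), -4.57 (p110-121 minus p110-143) and -2.16 (p110-98 minus p110-360). For Tmem176b they were -0.99, -1 and -1.84 in the same order, and for Asic1 2.28, 0.45 and 1.27. For Csn2 the 2 solid medium-Wnt tumors were far apart (9.95 and 0.031), and among solid carcinomas alone (2 against 6) no gene passed in limma, 2323 had an unadjusted p under 0.05, and Nat8 was at -3.45 and Tmem176b at -1.6.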

How the data were processed

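RNA of microdissected epithelial cells from 17 tumors and an amplified reference RNA were hybridized on 38 2-color Agilent arrays of 45018 spots. The intensity values and flags deposited by the authors come from Feature Extraction 9.5.3.1. The authors' deposited table holds log2 ratios of tumor over reference, which the scanner files gave again with normexp (offset 50), loess and averaging of dye-swapped arrays (largest difference 4.98e-08). The submitters' processing notes name limma, with no version. These log2 values were used here. The brightest probe stood for a gene, and 22951 of 41174 probes (55.7%) matched RefSeq.

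Clusters were those drawn by the study, with 1 value per tumor. R 4.3.3 and limma 3.58.1 (lmFit and eBayes on all 17 tumors with 3 clusters, Benjamini-Hochberg over 28786 genes, threshold 0.05) gave adjusted p values, and single values were tested by exact two-sided permutation. The code was tested on simulated data. The number of arrays limits precision, and nothing in the labels gives more than 1 sample a mouse.

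The clusters, gene lists and the rule for naming genes were chosen with earlier results of these data known. Named are the Wnt ligands, 10 genes of the study's question and the 12 genes of smallest p in each direction with a RefSeq symbol (rises measured in at least 3 medium-Wnt tumors, falls in at least 4 low-Wnt tumors). From each list, members that passed are named. Where none passed, its 2 of smallest p are named among those measured in at least 3 medium-Wnt or at least 4 low-Wnt tumors. Milk and tight junction genes were described in full after their values were seen. Alternatives changed background correction, normalization, probes, dyes, filters, blocks, covariates and the tumors in the fit. Some genes that the rule or the lists hold are counted but not reported here.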

Additional observations from a re-analysis of the deposited data

Results flagged for a closer look

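In each cluster the highest or lowest tumor was compared with its nearest neighbor relative to the range of the cluster (Dixon's test). Of 254 such groups, the Wnt ligands left out, 21 held a tumor that stood apart, where chance gives about 1 in 20, and the genes of a list are not independent of each other. Values are log2 ratios of tumor over reference, each followed by the nearest value of the cluster.

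p110-121 stood apart among medium-Wnt tumors for Cldn7 (-0.1 against 1.74), Cxcl10 (0.65 against -1.53) and Cd68 (1.92 against -1.48), and for the mean of the immune list (3 against 0.74). p75-129 stood apart for milk genes, namely Glycam1 (8.98 against 0.14), Lalba (3.18 against 0.65) and Csn3 (2.14 against 0.59), and for Lpl (2.55 against -1.46) and Tef (-0.99 against -0.048). p75-90 was high for the epithelial genes Cdh1 (1.98 against 0.12) and Cldn4 (1.17 against 0.24). It also stood apart for Cldn2 (0.34 against 0.065), which was not measured in that tumor. p75-216 was low in the adipocyte mean (-0.58 against 0.49).

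Among low-Wnt tumors, p110-143 was high for Asic1 (-0.18 against -0.72), Col7a1 (1.95 against 0.6) and Onecut2 (0.29 against -1.7), of which Asic1 was not measured in that tumor. p110-360 was high in the milk gene mean (6.59 against 5.66), p75-150 for Tjp3 (5.19 against 3.89), and p75-534 for Notch4 (4.99 against 0.86). p110-314 was low for Csn1s1 (9.11 against 10.43) and p110-416 for the fibroblast and matrix mean (-3.36 against -1.46).

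The cluster difference of D630013G24Rik was unequal in p75 and p110 tumors (p75 minus p110 1.78, limma adjusted p = 0.0358).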

How the results depend on the processing

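The 8 called genes kept their direction under every alternative that tested them (5 of the 8 were tested among genes measured in at least 5 of 12 tumors), but their number did not. It was 2 without background correction, 0 with signals processed by Feature Extraction (2850 genes at an unadjusted p under 0.05), 1 with median centring, 0 with arrays scaled to the same spread (3229), 0 with the tumor channel alone (3764), 1 with the tumor in Cy5, 0 with the tumor in Cy3 (2931), 2 with the 12 tumors alone in the fit, 14 with the transgene or the scan day as a block, 13 with the share of probes above background as a covariate, 0 in solid carcinomas (2323), 2 in p75 and 175 in p110 tumors and, chosen after seeing the data, 3 without both p110 medium-Wnt tumors. Leaving out 1 tumor gave 2 to 111 genes, 0 to 659 for the unequal cluster difference and a difference in share of -10.9 to -0.18. Lower milk genes numbered 4 with scaled arrays, 3 in solid carcinomas, 2 in p75 tumors and 5 without both p110 medium-Wnt tumors (9 to 12 with 1 tumor left out), and lower tight junction genes 4 to 8 over all settings. Directions turned, in genes that did not pass, with the tumor channel alone for Glis1 (-0.079), Cux1 (-0.027), Snai1 (-0.37), Twist1 (-0.23), Onecut2 (-0.56), Oasl1 (-0.03) and Cldn3 (0.35), with Feature Extraction signals for Snai1 (-0.73), Twist1 (-0.18) and Onecut2 (-0.62), and with median centring for Cux1 (-0.53), Vim (-0.081), Onecut2 (-0.17) and Erbb4 (-0.2). They turned in p75 tumors for Vim (-0.43), Twist1 (-0.17), Cdh1 (0.63), Sfrp2 (0.16), Onecut2 (-0.2), Ltf (0.66), Lcn2 (0.37), Spp1 (0.68) and Cldn4 (0.22), and without both p110 medium-Wnt tumors for Cux1 (-0.048), Vim (-0.2), Onecut2 (-0.31), Ltf (0.19), Spp1 (0.1) and Cldn3 (0.6). They also turned with Cy3 alone for Cux1 (-0.069), Erbb4 (-0.021) and Tjp1 (0.11), with Cy5 alone for Cldn3 (0.11), in solid carcinomas for Spp1 (0.28) and Tjp1 (0.07), in p110 tumors for Cldn2 (-0.042) and Tjp1 (0.18), and for Tjp1 from the scanner files without control and outlier spots (0.00096), with the mean of all probes (0.046) and with the share covariate (0.016). With 1 tumor left out, the ranges that crossed 0 were -0.058 to 0.23 for Cux1, -0.0063 to 0.98 for Vim, -0.012 to 0.6 for Onecut2, -0.98 to 0.22 for Cldn3, -1.13 to 0.16 for Spp1 and -0.065 to 0.039 for Tjp1. The cause of these changes was not tested. The replicate numbers only name mice and pair no tumors. The scan day of the first array, which 3 pairs of a medium-Wnt and a low-Wnt tumor share, is the random block given above. Signal over background limits the genes measured in few tumors.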
